A study of Mus musculus with 6 samples.

Results

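Transport and synthesis of the amino acids that go into bone and cartilage matrix were followed through 9 genes, chosen by name: the transporters Slc38a2, Slc1a5 and Slc7a5, and the enzymes Phgdh, Psat1, Asns, Glul, Pycr1 and Aldh18a1. They are 9 of 23364 gene symbols measured by RNA-seq, and all 9 were among the 11218 symbols abundant enough to test. Both groups came from C57BL/6 mice at P1, the first day after birth. The osteoblast group held 3 libraries of calvarial (skull roof) cells released with Liberase TM and sorted for GFP, with the genotype given as Sp7 positive. The chondrocyte group held 3 libraries of WT rib cartilage cells released with Pronase and Collagenase D, for which no sort is stated. Cell type, skeletal site, sorting, genotype and enzyme all go with the group and cannot be told apart. No label says whether the replicates came from separate animals, so the p-values measure only the spread between these libraries.

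Collagen is rich in glycine and proline, so cells that secrete matrix need a steady supply of both. Glycine is made from serine, which leaves glycolysis through Phgdh and Psat1, and proline is made from glutamate through Aldh18a1 and Pycr1. Glutamine enters through Slc1a5 and Slc38a2, supplies glutamate and the amide group of asparagine, and in osteoblasts is known to be needed for matrix production. Several of these genes are known targets of Atf4, a transcription factor translated when amino acids run short, which binds the C/EBP-ATF response element.

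The promoters of Asns, Psat1 and Pycr1 are shown because the first pair varied most between chondrocyte libraries, and because Asns and Pycr1 hold the core of that element. Each run is the 250 bases before the start site in RefSeq on build GRCm38.p6, read 5′ to 3′ on the gene's strand (-), with every match to the core TGATGNAA in capitals. They lie at chr6:7693210-7693459 for Asns, chr19:15925060-15925309 for the more upstream start of Psat1, and chr11:120643749-120643998 for Pycr1.
Asns: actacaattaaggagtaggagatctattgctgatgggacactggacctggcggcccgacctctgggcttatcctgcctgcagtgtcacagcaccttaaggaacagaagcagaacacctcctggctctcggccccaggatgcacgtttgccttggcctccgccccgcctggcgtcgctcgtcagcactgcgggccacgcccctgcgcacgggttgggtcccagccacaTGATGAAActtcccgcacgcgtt
Psat1: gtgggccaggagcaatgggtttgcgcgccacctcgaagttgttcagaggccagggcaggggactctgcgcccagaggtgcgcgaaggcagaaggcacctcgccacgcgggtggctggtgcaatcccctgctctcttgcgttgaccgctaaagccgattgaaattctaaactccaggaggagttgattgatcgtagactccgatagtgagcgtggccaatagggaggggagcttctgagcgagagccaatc
Pycr1: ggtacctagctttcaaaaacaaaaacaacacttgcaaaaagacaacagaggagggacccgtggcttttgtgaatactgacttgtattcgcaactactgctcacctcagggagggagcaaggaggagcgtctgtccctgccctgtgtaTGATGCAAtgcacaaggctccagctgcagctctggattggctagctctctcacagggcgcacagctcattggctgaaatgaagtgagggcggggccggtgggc

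Windows reaching from 250 bases before to 50 bases after the start were searched on both strands, and 7 of the 9 genes had a window. A match to TGATGNAA stood in those of Asns, beginning 23 bases before the start, and Pycr1, beginning 103 bases before it. Of all 32851 windows 3.97% held a match. Counted by gene, 1219 of 27025 genes had a match in at least 1 window. The stricter TGATGCAA, which is contained in TGATGNAA, was found in Pycr1 and in 0.89% of all windows. Among the related lists described below, TGATGNAA stood in 5 of 12 genes with a window for the cytosolic aminoacyl-tRNA synthetases, which load amino acids onto tRNA, in 4 of 16 amino acid response genes and in 3 of 23 other transporters. It stood in 1 of 13 glutamine enzymes, 1 of 20 mTORC1 genes, 0 of 12 serine enzymes and 0 of 6 proline enzymes. These are matches of letters, and binding was not measured.

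Expression is given in RPKM, a read number relative to transcript length and sequencing depth, summed over the transcripts of a gene. The RPKM scale allows levels of different genes to be set side by side. Differences are osteoblast minus chondrocyte values of log2(RPKM + 1), a scale that shrinks the changes of low genes. A gene was called at a limma p under 0.05 after Benjamini-Hochberg adjustment over all tested genes, and every adjusted p below is of this kind. An RPKM of 1 in a transcript of 2 kb stood for an estimated 53.9 to 71.6 reads, depending on the library, and each of the 9 genes rested on 286 to 14698 estimated reads per library. Sp7 stood at 108 to 134 RPKM in the osteoblast libraries and 0.911 to 2.31 in the chondrocyte libraries. Summed over their marker lists, chondrocyte markers stood at 250 to 289 RPKM in osteoblasts and 32670 to 57408 in chondrocytes. Osteoblast markers summed to 21972 to 23453 and 2320 to 7815 RPKM, mostly Col1a1 (19060 to 20959 and 2259 to 7765). In chondrocyte libraries Sp7, Ibsp, Alpl, Bglap and Dmp1 stood at no more than 3.92 RPKM, Runx2 at 9.06 to 9.36 and Spp1 at 36.1 to 42.5. Markers of proliferation (73.7 to 93.5 against 9.23 to 54.2 RPKM), myeloid cells (17.3 to 20.5 against 1.37 to 7.91), osteoclasts (202 to 217 against 47.0 to 165) and erythroid cells (13.5 to 29.2 against 2.92 to 12.8) were also more abundant in the osteoblast libraries. Those of endothelium stood at 0.604 to 2.14 against 2.08 to 4.97 RPKM. The osteoclast sum was mostly Ctsk, at 196 to 205 against 45.0 to 162 RPKM. Acp5 stood at 3.03 to 6.78 against 1.80 to 2.20 RPKM and Mmp9 at 3.18 to 5.06 against 0.0285 to 0.186 RPKM. Oscar, Ocstamp and Calcr were under 1 RPKM in every library. Muscle markers summed to 1.71 to 1.81 against 9.81 to 41.1 RPKM. Tnnt3 stood at 0.697 to 0.999 against 9.16 to 40.1 RPKM and so carried the chondrocyte sums. The 6 others, Myod1, Myog and Ckm among them, were under 1 RPKM in every library. Of 5 tested tendon and fibroblast markers 4 were higher in osteoblasts, while Tnmd, at 17.5 to 37.9 against 52.3 to 341 RPKM, was higher in chondrocytes. Chondrocyte replicate 3 held the highest sums of its group for markers of osteoblasts, myeloid cells, osteoclasts and endothelium, and the highest Tnmd. Among the osteoblast markers only Col1a1 was highest there, at 7765 RPKM against 2270.5 and 2259.3 in replicates 1 and 2. Bglap, Dmp1 and Spp1 were lowest in replicate 3. The part of these markers in the differences below was not tested. In bulk libraries, fewer cells of a type and less RNA per cell cannot be told apart.

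Most genes leaned to the osteoblast side: 55.5% of all tested genes were called higher in osteoblasts, 13.5% were called higher in chondrocytes, and the median log2 difference was 0.43. Median-of-ratios scaling moved that median to 0.01 and the called shares to 30.4% and 31%, so that 49.5% of calls in place of 80.5% were higher in osteoblasts. With RPKM as deposited, the 9 amino acid genes had a median of 0.07, against the 0.43 of all tested genes. Psat1 and Aldh18a1 were called higher in osteoblasts, Slc38a2 and Slc1a5 were called higher in chondrocytes, and the other 5 were not called (limma). Osteoblast libraries all lay above chondrocyte libraries for Psat1, Aldh18a1 and Phgdh, an arrangement seen in 60.4% of tested genes, and all below for Slc38a2 and Slc1a5, found in 15.3%.

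**Figure D1:**
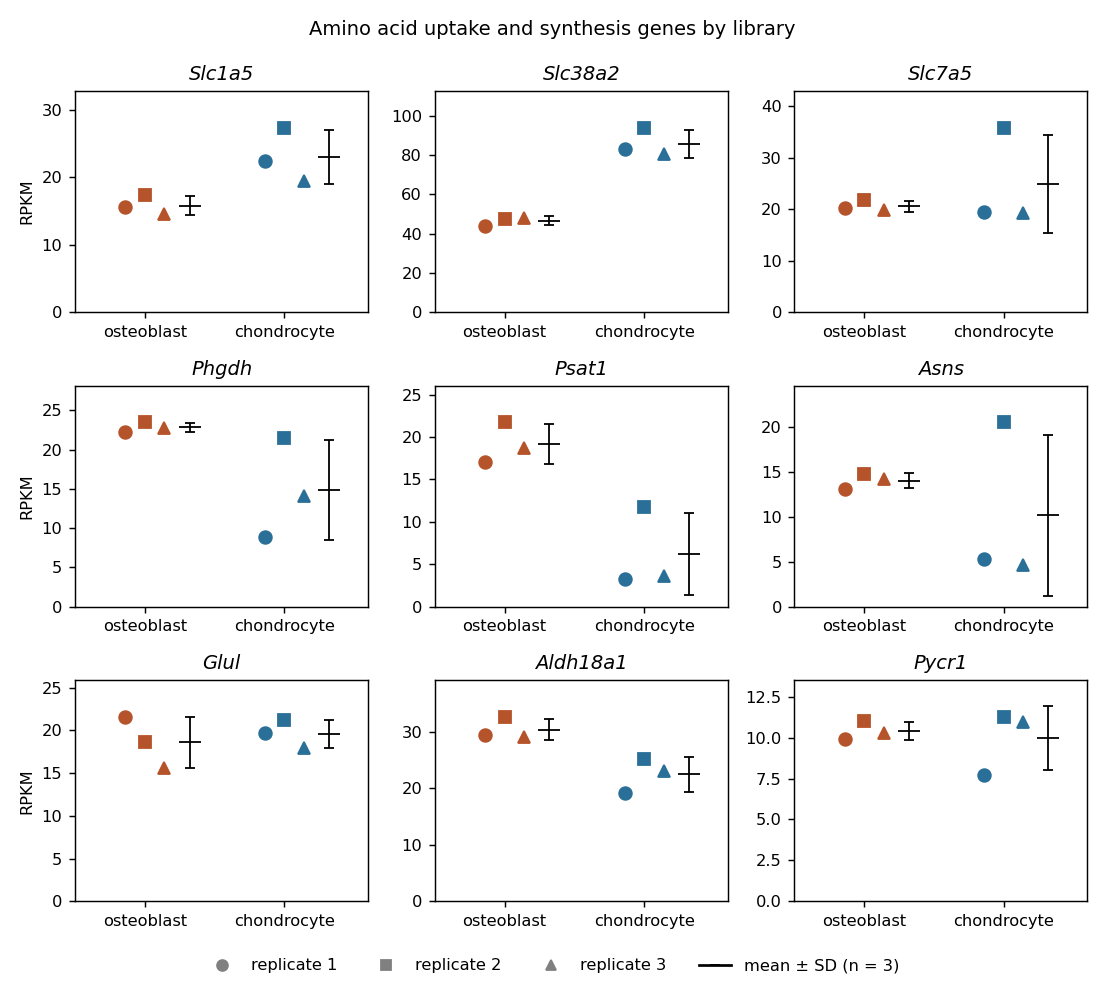
RPKM of the 9 genes in each of the 6 libraries, a panel per gene, with points for libraries and bars for the group mean ± SD (n = 3). Slc38a2 separates the groups on the chondrocyte side and Psat1 on the osteoblast side, and in Asns, Psat1, Phgdh and Slc7a5 the second chondrocyte library stands above both other libraries of the group.

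Slc38a2 encodes SNAT2, a sodium-coupled carrier of small neutral amino acids such as alanine, glutamine and proline. It stood at 43.9, 47.7 and 48.2 RPKM in osteoblast replicates 1 to 3 and at 82.9, 93.9 and 80.3 RPKM in chondrocyte replicates 1 to 3. Every chondrocyte library lay well above every osteoblast library. Mean levels were 46.6 ± 2.35 and 85.7 ± 7.21 RPKM (SD, n = 3 each), 1.84-fold higher in chondrocytes. This is a log2 difference of -0.86 ± 0.11 (SE) at a limma adjusted p of 0.000316. Over 19 alternative settings it ranged from -1.37 to -0.80 and stayed called, with adjusted p up to 0.00334. It was the most abundant of the 9 genes in both cell types, with no overlap with the next.

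Slc1a5 encodes ASCT2, an exchanger that brings in glutamine for other neutral amino acids. Its levels were 15.6, 17.3 and 14.5 RPKM in osteoblasts and 22.4, 27.3 and 19.4 RPKM in chondrocytes. The groups did not overlap, though the gap between their nearest libraries was small. Means of 15.8 ± 1.42 and 23.0 ± 4.01 RPKM gave a 1.46-fold higher level in chondrocytes and a log2 difference of -0.51 ± 0.14 (limma adjusted p 0.0131). The call was lost without osteoblast replicate 3 (-0.45, adjusted p 0.0525). Both genes thus lay on the side opposite to most of the genes tested, -1.30 and -0.94 from the median gene for Slc38a2 and Slc1a5.

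Slc7a5 encodes LAT1, which carries leucine and other large neutral amino acids once paired with the heavy chain Slc3a2. It stood at 20.2, 21.8 and 19.8 RPKM in osteoblasts and at 19.5, 35.8 and 19.3 RPKM in chondrocytes. Only chondrocyte replicate 2 departed from a common level near that of the osteoblasts. The log2 difference of -0.20 ± 0.23 was not called (limma adjusted p 0.449), and its sign turned without that library (0.082). Slc3a2 itself stood at 36.8 ± 3.45 and 39.5 ± 2.42 RPKM and was not called (-0.10), but it was called higher in chondrocytes under median-of-ratios scaling (-0.60, limma adjusted p 0.00223).

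Related carriers did not all lie on the same side as Slc38a2 and Slc1a5. Slc38a4, a SNAT carrier like Slc38a2, was higher in osteoblasts at 24.6 ± 2.55 against 10.9 ± 3.70 RPKM (log2 difference 1.15), a call lost under median-of-ratios scaling (0.66, limma adjusted p 0.0683). Slc38a3, the SNAT3 carrier of glutamine, histidine and asparagine, stood at 0.186 ± 0.0898 RPKM in osteoblasts and 17.1 ± 4.95 in chondrocytes (-3.90), and met the filter of 1 RPKM in at least 3 libraries through its chondrocyte libraries alone. Slc7a8, the LAT2 partner of Slc3a2, showed the reverse, at 2.37 ± 0.242 and 0.117 ± 0.0392 RPKM (1.59), and its osteoblast libraries alone met the filter. Slc38a1, at 3.31 against 2.39 RPKM, and Slc1a4, a serine and alanine exchanger close to Slc1a5, at 13.6 against 15.3 RPKM, were not called. Without chondrocyte replicate 3 Slc38a1 was called higher in osteoblasts (0.58, limma adjusted p 0.0088).

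Of 29 other amino acid transporters of the plasma membrane and lysosome 23 were tested, of which 12 were called on the osteoblast side, 3 on the chondrocyte side and 8 on neither, with a median log2 difference of 0.47. The shares over all tested genes were 55.5% and 13.5%, with a median of 0.43. Slc7a8, Slc6a17, Slc16a10 and Slc43a2, 4 of the 12, met the filter through their osteoblast libraries alone and Slc38a3 through its chondrocyte libraries alone, so their direction was built in. Slc36a1, a proton-coupled carrier on lysosomes, was among the 12 at 7.64 against 2.13 RPKM (1.47), as was Slc38a10 at 74.3 against 28.8 RPKM (1.35). The 3 on the chondrocyte side were Slc38a3, Slc43a1 (-0.69) and the arginine and lysine carrier Slc7a1 (-0.50). Slc7a1 lost its call when osteoblast replicate 1, 2 or 3 was left out (limma adjusted p 0.0681, 0.0689 and 0.0532).

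Phgdh catalyses the first step from a glycolytic intermediate to serine. It stood at 22.2, 23.5 and 22.8 RPKM in osteoblasts and at 8.83, 21.5 and 14.1 RPKM in chondrocytes. The osteoblast libraries were tightly grouped and lay above all chondrocyte libraries, but chondrocyte replicate 2 came close to them. At 22.8 ± 0.617 against 14.8 ± 6.38 RPKM, a 1.54-fold ratio, the log2 difference of 0.67 ± 0.27 was not called (limma adjusted p 0.0578). Without chondrocyte replicate 2 it was called at 0.97 (adjusted p 0.002). Under median-of-ratios scaling it shrank to 0.19 and was not called (limma adjusted p 0.642).

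Psat1, the aminotransferase of the next step, gave the largest difference of the 9 genes. Its levels were 17.1, 21.7 and 18.7 RPKM in osteoblasts and 3.26, 11.7 and 3.65 RPKM in chondrocytes. All osteoblast libraries were higher than all chondrocyte libraries, replicate 2 included. The means of 19.2 ± 2.35 and 6.22 ± 4.79 RPKM differed 3.08-fold, with a log2 difference of 1.67 ± 0.39 (limma adjusted p 0.00694), higher than in 93.3% of tested genes. Leaving out chondrocyte replicate 2 raised it to 2.17, and under median-of-ratios scaling it was not called (1.20, adjusted p 0.0602). Psph, the phosphatase that completes serine synthesis, stood at 4.06 ± 0.153 and 3.46 ± 0.826 RPKM and was not called (0.20). It was called higher in osteoblasts without chondrocyte replicate 2 (0.34, limma adjusted p 0.00872).

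Among 14 tested of 16 listed enzymes of serine, glycine and one-carbon metabolism outside the 9 genes, 9 were called on the osteoblast side, 1 on the chondrocyte side and 4 on neither (median 0.61), beside 55.5% and 13.5% of all tested genes. Shmt1 and Shmt2, which split serine into glycine and a one-carbon unit in cytosol and mitochondria, differed by 1.24 and 0.74, and the call of Shmt2 was lost under median-of-ratios scaling (0.25, limma adjusted p 0.365). Gcsh, a carrier protein of the glycine cleavage system, and Tyms, thymidylate synthase, differed by 1.06 and 0.99. The 2 uncalled genes of highest mean over the 6 libraries were Mthfd2, a mitochondrial folate enzyme at 15.1 ± 2.09 and 18.8 ± 11.7 RPKM, and Aldh1l2, at 7.68 ± 0.816 and 4.81 ± 3.39 RPKM. Aldh1l2 was called higher in osteoblasts without chondrocyte replicate 2 (1.18, limma adjusted p 0.000606).

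Asns makes asparagine from aspartate, taking the amide group from glutamine. It stood at 13.1, 14.8 and 14.2 RPKM in osteoblasts and at 5.29, 20.5 and 4.66 RPKM in chondrocytes. Chondrocyte replicate 2 lay above every osteoblast library, while the other chondrocyte libraries lay far below. The log2 difference of 0.71 ± 0.47 was not called (limma adjusted p 0.206). Without chondrocyte replicate 2 it was 1.33 and called higher in osteoblasts (adjusted p 1.17e-05). Under median-of-ratios scaling of all 6 libraries it shrank to 0.25 and was not called (limma adjusted p 0.716).

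Glul, glutamine synthetase, joins ammonia to glutamate. Its levels were 21.5, 18.7 and 15.6 RPKM in osteoblasts and 19.7, 21.2 and 17.9 RPKM in chondrocytes, and the groups overlapped. The log2 difference of -0.08 ± 0.13 was not called (limma adjusted p 0.618). Its sign turned without osteoblast replicate 3 (0.037), and under median-of-ratios scaling it was called higher in chondrocytes (-0.56, adjusted p 0.0143).

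Of 17 tested among 18 other listed enzymes of glutamine, glutamate and aspartate, 11 were called on the osteoblast side, 4 on the chondrocyte side and 2, Gpt2 and Ctps2, on neither (median 0.58), beside 55.5% and 13.5% of all tested genes. Among the 11, Gpt met the filter through its osteoblast libraries alone. Ass1, which joins aspartate to citrulline, stood at 16.5 ± 0.587 against 2.54 ± 0.676 RPKM (2.32). The nucleotide enzymes Ctps (1.20) and Cad (1.13), which use glutamine as nitrogen donor, were also higher in osteoblasts. Gfpt2, which uses glutamine to start hexosamine synthesis, led the chondrocyte side at 37.3 ± 8.55 against 4.38 ± 1.14 RPKM (-2.83). Gfpt1 of the same step (-0.73) and the purine enzyme Ppat (-0.94) were also higher in chondrocytes. Gpt2, an alanine aminotransferase, was called higher in osteoblasts without chondrocyte replicate 2 (0.29, limma adjusted p 0.0294).

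Aldh18a1 encodes P5CS, which turns glutamate into the precursor shared by proline and ornithine. It stood at 29.5, 32.6 and 29.1 RPKM in osteoblasts and at 19.2, 25.2 and 23.2 RPKM in chondrocytes, without overlap. The means of 30.4 ± 1.93 and 22.5 ± 3.05 RPKM, a 1.35-fold ratio, gave a log2 difference of 0.43 ± 0.12 (limma adjusted p 0.0154). That is the difference of the median gene (-0.01 from it), and the call was lost under each of 5 scalings of the libraries, with the sign turned under median-of-ratios scaling (-0.067, adjusted p 0.719). The call was also lost without osteoblast replicate 2 (0.38, adjusted p 0.0647). The annotation holds a longer and a shorter form of Aldh18a1, the longer known to resist inhibition by ornithine. The longer transcript, of 795 codons, held 81.4% to 87.7% of the gene's RPKM over the 6 libraries and the shorter, of 793 codons, held 12.3% to 18.6%. The ranges of the groups overlapped, and the sources used here do not give how reads were divided between transcripts.

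Pycr1 encodes a mitochondrial reductase that completes proline. Its levels were 9.94, 11.0 and 10.3 RPKM in osteoblasts and 7.74, 11.3 and 10.9 RPKM in chondrocytes. The groups overlapped, with chondrocyte replicate 1 the lowest library. The log2 difference of 0.07 ± 0.14 was not called (limma adjusted p 0.680). Leaving out chondrocyte replicate 1 turned its sign (-0.086), as did median-of-ratios scaling (-0.40, adjusted p 0.0845).

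Pycrl, a cytosolic reductase of the same step, stood at 12.4 ± 1.26 against 4.90 ± 0.998 RPKM (1.19) and was called higher in osteoblasts. The difference between it and Pycr1 was not tested. Of 6 tested among 10 listed proline and ornithine enzymes outside the 9 genes, 4 were called on the osteoblast side and 0 on the chondrocyte side (median 0.80), beside 55.5% and 13.5% of all tested genes. Those called on the osteoblast side included Aldh4a1, which degrades the proline precursor to glutamate, at 6.72 ± 0.358 against 1.09 ± 0.239 RPKM (1.89), and Pepd, which frees proline from dipeptides of broken collagen (0.93). Oat, at 66.6 ± 6.96 against 73.9 ± 6.59 RPKM, and Odc1, at 43.5 ± 5.04 against 40.7 ± 5.77 RPKM, were not called. Under median-of-ratios scaling both were called higher in chondrocytes (-0.65 and -0.40, limma adjusted p 0.001 and 0.0116), which for Odc1 turns the sign.

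**Figure D2:**
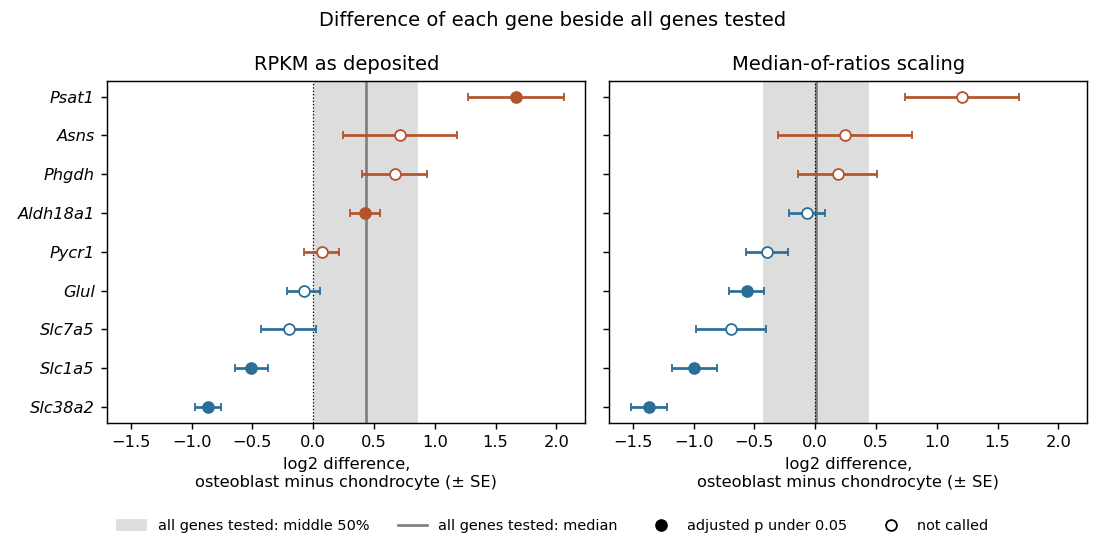
Log2 difference (osteoblast minus chondrocyte, with SE bars) of each of the 9 genes, beside the median and middle 50% of all tested genes, for RPKM as deposited (left) and under median-of-ratios scaling (right). Filled points are called genes. Slc38a2 and Slc1a5 are called below 0 in both panels, Psat1 is called as deposited only, and Aldh18a1 sits at the median gene of the left panel.

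Ordered by mean RPKM, osteoblasts ran Slc38a2, Aldh18a1, Phgdh, Slc7a5, Psat1, Glul, Slc1a5, Asns and Pycr1. Neighbours from Slc7a5 down to Asns overlapped in their library ranges, and the other neighbours did not. In chondrocytes the order was Slc38a2, Slc7a5, Slc1a5, Aldh18a1, Glul, Phgdh, Asns, Pycr1 and Psat1. There, all neighbours after Slc38a2 overlapped. Psat1 thus ranged from the fifth position in osteoblasts to the last in chondrocytes.

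Asns, Psat1, Phgdh and Slc7a5 shared a pattern inside the chondrocyte group that was noticed after their values were seen. In chondrocyte replicate 2 these 4 of the 9 genes were at least 1.5-fold above both other chondrocyte libraries, which held for 4.23% of all tested genes. Over the mean of the other libraries, that library held 4.11 times as much Asns, 3.40 times Psat1, 1.88 times Phgdh and 1.85 times Slc7a5. Leaving out this library, Asns, Phgdh, Psat1 and Aldh18a1 were called higher in osteoblasts, as were 56.3% of all tested genes, and Slc38a2 and Slc1a5 higher in chondrocytes, as were 16.9%. None of the 9 genes set any other library apart in this way, although chondrocyte replicate 3 stood above both others of its group in more genes, 6.01% of those tested. The median ratio was 1.31 for the 9 genes and 0.83 for all tested genes. The same mark was met by Gpt2 (3.74) and Got1 (1.79), Aldh1l2 (2.98), Mthfd2 (2.65) and Shmt2 (1.55), the transporters Slc6a9 (2.66), Slc38a4 (1.73) and Slc7a2 (1.56), the synthetases Cars (2.13), Iars (1.82), Gars (1.78) and Lars (1.53), and Trib3 (2.74) and Eif4ebp1 (1.71). None of the 6 proline enzymes or 21 mTORC1 genes met it.

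Other features of chondrocyte replicate 2 moved with this pattern. Of 6 proliferation markers 5 met the same mark, with a median ratio of 5.68, and their summed level was 54.2 RPKM there against 9.23 and 14.7 in replicates 1 and 3 and 73.7 to 93.5 in osteoblasts. The mark was also met by 3 of 8 chondrocyte markers, Matn1 (46.6 RPKM there against 3.12 and 3.10), Hapln1 (370 against 165 and 129) and Acan (996 against 504 and 464). Of 8 osteoblast markers 4 met it, Sp7, Bglap, Ibsp and Alpl, none of them above 3.92 RPKM in that library. Tnnt3 stood at 40.1 RPKM there against 13.1 and 9.16, while summed myeloid markers were lowest there at 1.37 RPKM. Of 5 tested tendon and fibroblast markers 4 were at least 1.5-fold below both other chondrocyte libraries there, with a median ratio of 0.42. Of all tested genes 14.2% lay that far below. The part of these features in the levels of Asns, Psat1, Phgdh and Slc7a5 was not tested.

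**Figure D3:**
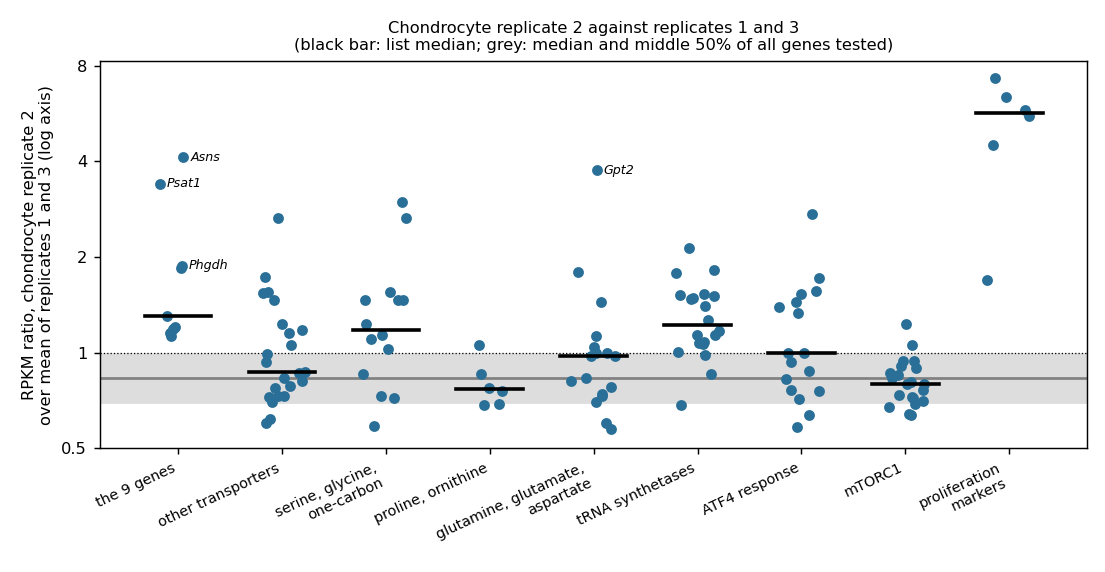
Ratio of RPKM in chondrocyte replicate 2 to the mean of chondrocyte replicates 1 and 3 on a log axis, a point per gene, grouped by list, with list medians as black bars and the median and middle 50% of all tested genes in grey. Asns and Psat1 stand highest among the 9 genes, and the proliferation markers have a median of 5.68.

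For each called gene of the 9, the tested genes with the most similar profile over the 6 libraries were found by the root mean square difference of centred log2(RPKM + 1) values. For Psat1 these were Kif20a (0.0667) and Bub1b (0.0947), both known genes of cell division. Kif20a stood at 7.47, 9.07 and 7.82 RPKM in osteoblasts and at 0.763, 4.55 and 1.21 RPKM in chondrocytes, with the same high library among the chondrocytes. For Slc38a2 they were Slc35e1 (0.0498) and Pdp2 (0.0604), for Slc1a5 Osbpl1a (0.0553) and Ccdc28b (0.0563), and for Aldh18a1 Ckap4 (0.0244) and Tmem128 (0.0455). Such likeness rests on 6 libraries that mainly divide into the 2 groups.

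Genes that act downstream of amino acid supply were examined as 3 further lists. Of 20 cytosolic aminoacyl-tRNA synthetases 16 were called on the osteoblast side, Eprs on the chondrocyte side and Gars, Yars and Cars on neither (median 0.68), beside 55.5% and 13.5% of all tested genes. Kars, Wars, Vars and Farsa, which charge lysine, tryptophan, valine and phenylalanine tRNAs, led with 1.16, 1.16, 1.03 and 0.89. Without chondrocyte replicate 2, Gars (0.84), Yars (0.54) and Cars (0.49) were also called higher in osteoblasts (limma adjusted p 0.000485, 0.000629 and 0.00107). Under median-of-ratios scaling 6 in place of 16 were called higher in osteoblasts, where 30.4% of all tested genes were. Eprs (-0.27) lost its call when osteoblast replicate 1, 2 or 3 or chondrocyte replicate 3 was left out (adjusted p 0.0744, 0.105, 0.0813 and 0.0643). Among the 16, Aars, Iars, Nars and Tars lost their calls without osteoblast replicate 1 (limma adjusted p 0.123, 0.0511, 0.0699 and 0.0577). Each of them also lost its call when certain other libraries were left out.

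The amino acid response genes, the kinases of eIF2alpha, Atf4 and its known targets, had a median of -0.16. Calls on the osteoblast side numbered 6 of 17 tested, those on the chondrocyte side 5, and 6 genes were not called, beside 55.5% and 13.5% of all tested genes called on these sides. Ddit3, a stress-response transcription factor also called CHOP, stood at 70.6 ± 17.3 RPKM in chondrocytes against 10.3 ± 1.52 in osteoblasts (-2.64), and Chac1, which degrades glutathione, at 12.3 ± 2.50 against 2.86 ± 0.360 RPKM (-1.78). Atf4, Trib3 (-1.09) and Atf3 (-1.06) completed the chondrocyte side. The call of Trib3 was lost without osteoblast replicate 2 or 3 (limma adjusted p 0.0502 and 0.0636), and that of Atf3 without osteoblast replicate 1 or 3 or chondrocyte replicate 1 or 2 (adjusted p 0.130, 0.152, 0.136 and 0.113). Ddit4 (1.28) and Sesn2 (1.25), both known inhibitors of mTORC1 signalling, led the osteoblast side. Ppp1r15a (39.2 and 34.5 RPKM in osteoblasts and chondrocytes) and Cebpb (30.4 and 42.8 RPKM) were the uncalled genes of highest mean over the 6 libraries. Among 8 dissociation stress markers, immediate early and heat shock genes, Fos (1.26), Junb (0.87) and Hspa1b (1.63) were higher in osteoblasts, Ier2 (-0.79) was higher in chondrocytes and 4 were not called. Their part in these differences was not tested.

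Of the genes of mTORC1, the kinase complex that senses amino acids, and of its sensing machinery, 21 of 22 were tested and 14 were called on the osteoblast side, 4 on the chondrocyte side and 3 on neither (median 0.52), beside 55.5% and 13.5% of all tested genes. Lamtor2, of the complex that docks Rag GTPases on lysosomes, differed by 0.90, the mTOR partner Mlst8 by 0.85 and Nprl2, of the GATOR1 inhibitor, by 0.85. Rragb, a Rag GTPase, was lower in osteoblasts at 0.479 ± 0.0401 against 1.89 ± 0.428 RPKM (-0.95), and met the filter through its chondrocyte libraries alone. Mios (-0.38), Sesn1 (-0.32) and Tsc1 (-0.30) were the other genes higher in chondrocytes. Of these 4, only Rragb was called without osteoblast replicate 2 (limma adjusted p 0.0756, 0.0589 and 0.105 for Mios, Sesn1 and Tsc1) or without osteoblast replicate 3 (0.0562, 0.0624 and 0.126). Without chondrocyte replicate 1 Sesn1 (0.0503) and Tsc1 (0.115) were not called. Under median-of-ratios scaling 5 in place of 14 genes were called higher in osteoblasts, where 30.4% of all tested genes were. Rraga and Rheb, a pair of small GTPases at 30.7 and 27.4 RPKM in osteoblasts and 26.4 and 24.6 RPKM in chondrocytes, were not called, though both were called higher in chondrocytes under that scaling.

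**Figure D4:**
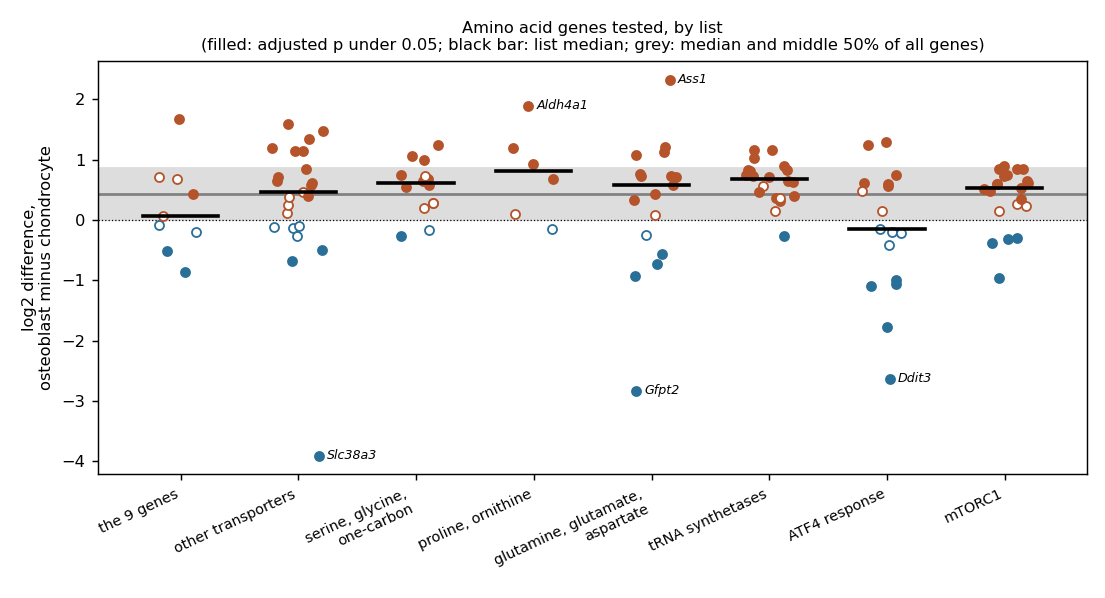
Log2 difference (osteoblast minus chondrocyte) of every tested gene of the 9 amino acid genes and the 7 related lists, with filled points for called genes, black bars for list medians, and the median and middle 50% of all tested genes in grey. The list medians run from -0.16 for the amino acid response genes to 0.80 for the proline enzymes, against 0.43 for all tested genes.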

How the data were processed

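RNA-seq of 6 libraries, 3 per cell type, was deposited by the authors as RPKM per RefSeq transcript. TopHat2 2.0.8 and mouse build mm9 are named in the submitters' processing notes. The read counter and the annotation are not given in the sources used here. A transcript without reads is listed at 0.0001. Transcript RPKM values were added up per gene symbol, and symbols at 1 RPKM or more in at least 3 of 6 libraries were tested (11218 of 23364).

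Groups were tested by limma 3.58.1 (R 4.3.3) with values as log2(RPKM + 1), a pseudocount of 1, two-sided, with trend and robust moderation and Benjamini-Hochberg adjustment over all tested genes, called at an adjusted p under 0.05. In simulated data the procedure recovered 17.2% of true log2 changes of 0.5, 95.7% of those of 1 and 100% of those of 2. Of its calls there 7.1% were false. The simulation changed 64, 69 and 67 genes by these amounts, far fewer than were called in the data. These genes were drawn from those with a mean log2 value above 2 in chondrocytes. Each gene had the same noise in every library, so no library was set apart as in the data, and the median gene was not shifted. The recovery shares therefore do not cover those features of the data. The table holds no counts: read numbers were estimated from the steps of low values and GENCODE M21 transcript lengths. In each library 55.3% to 60.4% of values under 20 reads lay no more than 0.05 from whole numbers, where 10% is the chance share, and totals were fitted to those values. Promoters are RefSeq windows on GRCm38.p6, a build other than that of the files, so no position is taken from the files.

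The 9 genes, the lists and the tests were chosen with earlier results of these data known. Besides the 9 genes, the naming rule takes up to 4 called genes of largest difference and up to 2 uncalled genes of highest level per list, paralogs of the 9, and genes that complete a count of 5 or fewer. Other genes named for chondrocyte replicate 2 were chosen after their values were seen. Alternatives were pseudocounts of 0.1 and 5, filters (none, or a mean RPKM of at least 5), 4 scalings, library weights, plain moderation, the replicate block, 1 transcript per gene and each library left out. Median-centred libraries were added after the data were seen. The share of residues encoded was not computed. Some genes that the naming rule takes are not reported here.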

Additional observations from a re-analysis of the deposited data

How the results depend on the processing

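Over the alternatives run, Slc38a2 kept its direction and its call. Calls of other genes changed with the scaling of the libraries, the library weights, the filter and the libraries left out. The scalings below are given in the order median-of-ratios, upper quartile, quantile, scaling without the 50 most abundant genes, and median-centred libraries, the last chosen after seeing the data. Across these, Glul became called higher in chondrocytes (-0.56, -0.51, -0.50, -0.47 and -0.48), Pycr1 turned sign (-0.40, -0.34, -0.34, -0.31 and -0.33) and Aldh18a1 lost its call (-0.067, -0.010, 0.037, 0.025 and 0.021). Psat1 lost its call under median-of-ratios only among the scalings (1.20). The numbers of the 9 genes called higher in osteoblasts were 0, 1, 1, 1 and 1. Called higher in osteoblasts were 4 serine enzymes under each of the 5, then 5, 7, 6, 7 and 6 glutamine enzymes, 6, 7, 6, 7 and 6 tRNA synthetases, 3, 3, 2, 3 and 3 amino acid response genes, and 5, 6, 6, 6 and 7 mTORC1 genes. Transporters fell to 7 under median-of-ratios, quantile and median-centred scaling. Called higher in chondrocytes under each of the 5 were 6 transporters, 2 proline enzymes and 9 amino acid response genes. Over all 11218 tested genes these scalings called 3405, 3706, 3597, 3904 and 3613 higher in osteoblasts, in place of 6224. They called 3478, 3184, 3456, 3009 and 3399 higher in chondrocytes, in place of 1512.

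With limma array weights Asns (1.19), Phgdh (1.14) and Pycr1 (0.29) were called, Slc7a5 turned sign (0.050), 5 of the 9 genes were higher in osteoblasts, and 5 transporters were higher in chondrocytes. Over all 11218 tested genes these weights called 6857 higher in osteoblasts and 2121 higher in chondrocytes. With a mean RPKM of at least 5, the numbers higher in osteoblasts were 4 transporters, 4 serine enzymes, 7 glutamine enzymes and 8 mTORC1 genes, and those higher in chondrocytes were 3 amino acid response genes and 2 mTORC1 genes, with fewer genes tested. Of the 6911 genes that met this filter, 4092 were called higher in osteoblasts and 885 higher in chondrocytes. Without a filter 5 transporters were higher in chondrocytes, and of 17697 genes then tested 7521 were called higher in osteoblasts and 1972 higher in chondrocytes. The stricter promoter motif left 1 of the 9 genes with a match. Where not stated, the cause was not tested.

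Leaving out each library in turn gave log2 differences of 0.32 to 0.51 for Aldh18a1, 0.37 to 1.33 for Asns, -0.19 to 0.037 for Glul, 0.37 to 0.97 for Phgdh, 1.38 to 2.17 for Psat1, -0.086 to 0.16 for Pycr1, -0.62 to -0.38 for Slc1a5, -0.91 to -0.80 for Slc38a2 and -0.35 to 0.082 for Slc7a5. The 9 genes then counted 1 to 4 higher in osteoblasts (1 without osteoblast replicate 2, 4 without chondrocyte replicate 2) and 1 to 2 higher in chondrocytes (1 without osteoblast replicate 3). Counts higher in osteoblasts were 11 to 14 transporters, 7 to 11 serine enzymes, 4 to 4 proline enzymes, 10 to 12 glutamine enzymes, 12 to 19 tRNA synthetases, 4 to 7 amino acid response genes and 13 to 14 mTORC1 genes. Counts higher in chondrocytes were 2 to 4 transporters, 0 to 1 serine enzymes, 0 to 0 proline enzymes, 4 to 4 glutamine enzymes, 0 to 1 tRNA synthetases, 3 to 5 amino acid response genes and 1 to 4 mTORC1 genes. Calls over all 11218 tested genes moved as well, from 5300 to 6319 higher in osteoblasts and from 1206 to 1898 higher in chondrocytes.

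The replicate numbers are shared by the groups, but no label says that they pair the libraries, so they were not taken as pairing. Deviations of same-numbered libraries correlated at 0.08, 0.01 and -0.16, and those of differently numbered libraries at -0.15 to 0.13. With 3 libraries per group these values cannot decide whether the numbers pair the libraries. With the replicate number as a block, Phgdh was called (0.67, limma, Benjamini-Hochberg adjusted p = 0.0334), 0 serine enzymes, 0 tRNA synthetases and 2 mTORC1 genes were higher in chondrocytes, and over all genes 5892 and 1376 in place of 6224 and 1512 were called higher in osteoblasts and in chondrocytes. The share of residues encoded and its alternatives were not run, since no protein sequences were used here.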
